A study of Mus musculus with 6 samples.

Results

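The genes of DNA replication and the S phase were followed here as a set of 55 named genes, found by symbol among the 53801 genes counted in every library. The set covers the licensing of replication origins, the MCM helicase and its activators, the sliding clamp and its loader, the DNA polymerases and primase, single-strand binding by RPA, Okazaki fragment joining, nucleotide supply, the regulators of the G1/S transition, and the copying of chromatin. All 55 were expressed above the filter on low counts. The members were listed by name and not by a threshold on measured values, but the list was drawn up with earlier results of these data known.

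The cells were mouse neural progenitor cells (NPCs), self-renewing precursors of neurons and glia, derived from embryonic stem cells of a BL/6J x CAST-EiJ hybrid background and grown with EGF and FGF. SPEN, a nuclear RNA-binding repressor that takes part in X-chromosome silencing, carried an auxin-inducible degron (SPEN-AID), a tag that leads to destruction of the protein once auxin is added. The groups were cells after 24 h of auxin, cells after 48 h of auxin (500 uM in both) and untreated cells, each with 1 library from subclone 31 and 1 from subclone 30. All 6 libraries, the untreated ones included, came from cells with the degron, and each clone is a line grown from a subcloned culture. No library of cells without the degron was analysed here, so loss of SPEN and auxin itself cannot be told apart. Nothing in the labels says that cultures of 1 clone were kept apart, and p-values measure the spread between these 6 libraries only.

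Libraries held 24603816 to 43008978 counts, and the lowest count of any member in any library was 147, for Orc1 in clone 31 at 48 h. Of 8 fixed markers of neural progenitors, 7 passed the filter, and Sox1 had at most 0.080 CPM in any library. The level of Spen RNA was 115.7 and 92.4 CPM untreated, 217.7 and 173.5 CPM at 24 h and 259.0 and 199.7 CPM at 48 h in clones 31 and 30, which says nothing of the protein that the degron removes. Of 6 markers of pluripotent cells, Pou5f1, Zfp42 and Dppa5a had 0 counts in all 6 libraries, while Nanog, Klf4 and Esrrb passed the filter. Nanog had 1.4 and 1.24 CPM untreated and 3.65 and 2.52 CPM at 48 h in clones 31 and 30. Klf4 had 9.7 and 8.39 CPM untreated and 26.3 and 9.83 CPM at 48 h in these clones. Esrrb was lower at 48 h, with 1.21 and 2.97 CPM against 4.6 and 4.17 CPM untreated.

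Replication is prepared in G1, when the origin recognition complex, CDC6 and CDT1 load the ring of MCM2 to MCM7 onto DNA. Cyclin E with CDK2 and the kinase of CDC7 and DBF4 then convert the ring into a moving helicase with CDC45 and GINS, and polymerases, clamp and RPA follow at the fork. Many of these genes are transcribed late in G1 by the E2F factors, which are held in check by the retinoblastoma protein until cyclin D and its kinases phosphorylate it. In neural progenitors this programme runs in dividing cells and is shut down as they leave the cycle.

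After 48 h of auxin the replication genes were lower as a body. In the fit that takes the clone as a block, 45 of the 55 members fell, none rose and 10 were not called (edgeR quasi-likelihood test, Benjamini-Hochberg adjusted p under 0.05 over 16007 genes), while 9.08% of all tested genes were called lower and 8.35% higher. The median log2 change of the 55 was -0.65, against 0.02 over all tested genes. Fitted on treatment group alone, as fixed for the main test, edgeR called none of the 55 (adjusted p 0.139 to 0.627) and 0% of all genes; 34 members had an unadjusted p under 0.05, and the median was -0.66. Every fall named below is therefore a call of the blocked fit, and 48 members fell by DESeq2 with the block, where 11.0% of all genes did.

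Libraries of the same clone varied together, and each clone gave the direction on its own. All 55 members had lower CPM (counts scaled to library size and normalized by TMM) at 48 h than untreated within clone 31 and within clone 30, which held for 35.3% of all tested genes. The within-clone medians were -0.73 in clone 31 and -0.59 in clone 30. The CPM of 48 h and untreated libraries did not overlap for 53 of the 55, against 25.7% of all genes in this direction, and the exceptions were Gmnn and Rfc1. Summed over the 55 genes, the level was 7034 and 5507 CPM untreated, 7242 and 5277 CPM at 24 h and 4352 and 3642 CPM at 48 h in clones 31 and 30. In bulk RNA, fewer cells in S phase and less of these RNAs per cell cannot be told apart. Leaving out untreated clone 31 took the blocked count of 45 to 0, leaving out either 24 h library took it to 23, and leaving out any other library gave 35 to 49. Each of these fits has a group of 1 library, whose spread is taken from the other groups, so the counts only describe the dependence on single libraries. Calls over all genes also grew when a 48 h library was left out. Fitted on only the 4 libraries compared, with the block, none of the 55 was called.

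**Figure D1:**
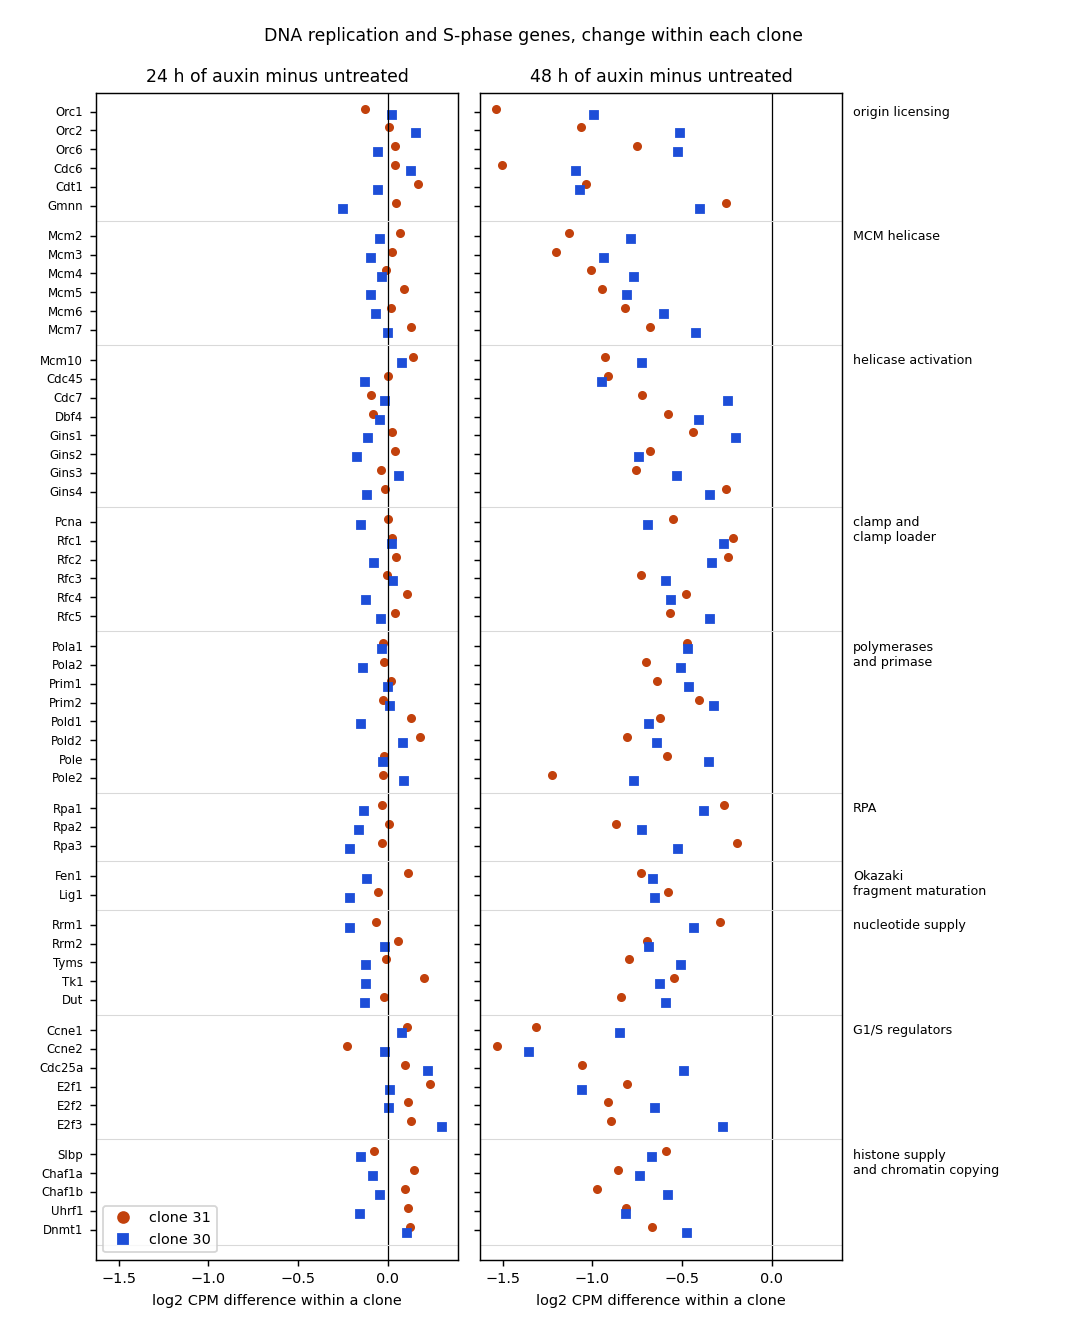
Difference in log2 CPM of each of the 55 genes within clone 31 (circles) and within clone 30 (squares), for 24 h minus untreated (left) and 48 h minus untreated (right), grouped by role. At 48 h all 55 lie below 0 in both clones, with medians of -0.73 and -0.59, while at 24 h they scatter around 0 with medians of 0.024 and -0.046.

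Markers of glial cells and of neural progenitors moved at the same time. The summed level of 6 astrocyte markers was 1027 and 833 CPM at 48 h, against 378 and 587 CPM untreated in clones 31 and 30. Of these 6, 4 were called higher in the blocked fit, where 8.35% of all tested genes were. Gfap of that list was at or under 2.72 CPM in every library, with 48 h changes of 1.58 and 1.83 (log2) within clones 31 and 30. The 7 markers of the oligodendrocyte lineage summed to 3286 and 3642 CPM at 48 h, against 2785 and 3320 CPM untreated, with 3 of 6 tested called higher. Sox10 of that list was at or under 0.188 CPM. Olig1 alone gave 2295 and 2697 CPM of the 48 h sums, and Olig2 changed by -0.59 and 0.039 (log2) within clones 31 and 30. The 8 progenitor markers summed to 5648 and 5882 CPM at 48 h, against 4190 and 5333 CPM untreated. Sox2 changed by 1.30 and 0.76 within these clones, and Pax6, Vim, Fabp7, Slc1a3 and Msi1 were also higher in both. Nes changed by -0.98 and -0.18. The 7 neuron markers summed to 1003 and 1081 CPM at 48 h, against 852 and 1133 CPM untreated in clones 31 and 30. Dcx and Snap25 were higher in both clones, Rbfox3 and Syt1 lower in both, and Map2 and Tubb3 differed in sign. Rbfox3, Snap25 and Syt1 were at or under 6.10 CPM in every library, and Stmn2 at or under 0.241 CPM. The part of any of these cell types in the lower replication genes was not tested.

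Because many replication genes are E2F targets, the letters of the E2F recognition site were searched for in the promoters of the members. The windows were those of RefSeq on GRCm38.p6, which reach from upstream of each RefSeq start to just inside it. The forms searched were TTTCCCGC, TTTCGCGC, TTTGCCGC and TTTGGCGC on both strands. Windows existed for 46 of the 55 members (58 windows). A match stood in 18 of the 58 windows (31%), against 744 of all 32851 windows of the same length (2.26%). All windows cover 27025 genes, expressed here or not, and were not matched to the members in base content. All matches of the 18 members are shown, because their share is higher than in all windows and the list's rule did not use them. Each line gives the strand on which the letters read, with the match in capitals. In these lines a match on one strand can overlap a match on the other.
Orc1 (chr4:108579417-108579444, minus strand): ggagaaaactTTTCGCGCcactaaccga
Cdc6 (chr11:98908003-98908030, minus strand): ccccaggcgaTTTCCCGCtctccaccgg
Cdt1 (chr8:122568037-122568064, plus strand): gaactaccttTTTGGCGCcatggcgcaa
Mcm3 (chr1:20820276-20820303, plus strand): cttcccaagtTTTCCCGCcacggaagtt
Mcm3 (chr1:20820263-20820284, minus strand): cttgggaagtTTTGGCGCcaag
Mcm5 (chr8:75109346-75109373, plus strand): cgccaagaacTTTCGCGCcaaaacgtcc
Mcm5 (chr8:75109350-75109377, minus strand): ggctggacgtTTTGGCGCgaaagttctt
Mcm6 (chr1:128359798-128359825, minus strand): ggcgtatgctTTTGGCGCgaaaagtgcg
Mcm6 (chr1:128359794-128359821, plus strand): cgcacgcactTTTCGCGCcaaaagcata
Mcm6 (chr1:128359735-128359762, minus strand): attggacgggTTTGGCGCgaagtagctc
Mcm7 (chr5:138172031-138172058, plus strand): ggacaccctgTTTCCCGCggttcgaaat
Mcm7 (chr5:138171850-138171877, minus strand): ggtgacgacgTTTCGCGCcaatttcggt
Gins3 (chr8:95633508-95633535, minus strand): tcaaactcgcTTTCCCGCgccgcactcg
Rfc3 (chr5:151651201-151651228, minus strand): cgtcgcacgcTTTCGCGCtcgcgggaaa
Rfc3 (chr5:151651191-151651218, plus strand): acagtagagtTTTCCCGCgagcgcgaaa
Pola1 (chrX:93632276-93632303, plus strand): cgggagtgcaTTTGGCGCcctgtgatga
Pold1 (chr7:44548766-44548786, plus strand): gctTTTCCCGCcacaagatac
Pole2 (chr12:69228163-69228190, plus strand): atgttcgcgaTTTGGCGCcaccgccgac
Lig1 (chr7:13278842-13278869, minus strand): gccacacagaTTTCGCGCgcactttggc
Cdc25a (chr9:109875502-109875529, plus strand): gtgaattccgTTTGGCGCcaactaggaa
E2f2 (chr4:136172303-136172323, plus strand): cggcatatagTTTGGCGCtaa
E2f3 (chr13:29986057-29986084, plus strand): gaaactcagaTTTCCCGCcggcttttca
Uhrf1 (chr17:56304118-56304145, plus strand): ccgagtcgggTTTCGCGCgcccaggcgt
Dnmt1 (chr9:20952825-20952852, plus strand): accccggcttTTTCGCGCgcgcggaaac
Dnmt1 (chr9:20952574-20952600, minus strand): cggggcagcgTTTGGCGCgggctgtgc

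The pair of Mcm5 lines show 1 stretch read from both strands, where TTTCGCGC on the plus strand overlaps TTTGGCGC on the minus strand. Matches lay from 219 bases before the RefSeq start of the window (Dnmt1) to 39 bases after it (Pold1 and E2f2). That start can differ from the start of the gene in the annotation used for counting. For example, the counted Dnmt1 gene starts at 20959888 on the minus strand, so its matches lie inside it. The matches of Orc1, Cdc6, Cdt1, Mcm3, Mcm7, Gins3, Rfc3, Pold1, Pole2, Lig1 and Uhrf1 also lie inside the counted genes. Those of the remaining members lie outside, and the E2f2 match, though after the RefSeq start, stands before the counted gene. The median blocked log2 change at 48 h was -0.74 for the 18 members with a match and -0.64 for the 28 members whose windows held none. Another element, the CHR (TTTGAA, both strands), is known from promoters of genes expressed in G2 and mitosis. It was in 19% of the members' windows, in 73.3% of the windows of 18 mitotic genes listed for comparison (15 had a window) and in 17.9% of all windows. A match is a string of letters and not a measured site of binding.

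Whole windows are given for the 3 members with the largest falls at 48 h among those with an entry, and for the member with the smallest change, so that promoters with and without the letters can be compared. Matches are in capitals, here as they read on the strand of the gene.
Cdc6 (chr11:98907901-98908200, plus strand): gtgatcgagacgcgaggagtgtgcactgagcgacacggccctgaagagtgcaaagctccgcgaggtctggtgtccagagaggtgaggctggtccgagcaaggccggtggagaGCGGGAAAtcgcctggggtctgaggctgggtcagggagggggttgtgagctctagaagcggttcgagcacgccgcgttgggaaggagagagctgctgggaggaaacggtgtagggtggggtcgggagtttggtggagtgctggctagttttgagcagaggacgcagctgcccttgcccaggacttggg
Orc1 (chr4:108579204-108579503, plus strand): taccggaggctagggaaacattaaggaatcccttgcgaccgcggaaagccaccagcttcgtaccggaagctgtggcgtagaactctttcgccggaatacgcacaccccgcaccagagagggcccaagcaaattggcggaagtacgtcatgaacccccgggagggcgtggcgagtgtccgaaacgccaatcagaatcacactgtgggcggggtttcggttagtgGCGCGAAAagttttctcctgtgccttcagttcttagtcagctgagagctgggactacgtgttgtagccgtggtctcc
Ccne1 (chr7:38107441-38107740, minus strand): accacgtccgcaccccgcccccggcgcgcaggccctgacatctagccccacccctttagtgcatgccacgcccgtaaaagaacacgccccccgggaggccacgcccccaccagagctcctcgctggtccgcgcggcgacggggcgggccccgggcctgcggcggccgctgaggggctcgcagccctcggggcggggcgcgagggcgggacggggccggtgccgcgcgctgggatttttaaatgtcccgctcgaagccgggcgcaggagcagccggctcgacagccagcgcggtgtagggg
Rfc1 (chr5:65335590-65335889, minus strand): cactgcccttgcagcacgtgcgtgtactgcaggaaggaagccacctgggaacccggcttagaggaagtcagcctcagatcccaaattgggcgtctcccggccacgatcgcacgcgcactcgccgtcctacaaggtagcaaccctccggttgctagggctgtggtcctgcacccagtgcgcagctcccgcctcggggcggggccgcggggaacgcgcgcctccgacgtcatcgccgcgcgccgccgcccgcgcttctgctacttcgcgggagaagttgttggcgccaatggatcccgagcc

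The capitals lie on the strand opposite to the gene in Cdc6, 138 bases before the RefSeq start, and in Orc1, 27 bases before it. In the annotation used for counting, Cdc6 starts at 98907801 and Orc1 at 108579423, so both matches lie inside the counted genes. The windows of Ccne1 and Rfc1 held none of the letters searched, although Ccne1 was among the members with the largest falls and Rfc1 had the smallest change.

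Among the origin licensing genes, 5 of 6 fell, with a median blocked log2 change of -0.92. CDC6 brings the MCM ring to the origin. Cdc6 stood at 54.3 and 33.0 CPM untreated, 55.8 and 36.1 CPM at 24 h and 19.1 and 15.5 CPM at 48 h in clones 31 and 30, and its 48 h change was -1.30 ± 0.13 (log2, SE; edgeR with the clone as block, adjusted p = 0.0238). Orc1, the subunit of the recognition complex that comes and goes with the cycle, had 16.2 and 11.0 CPM untreated, 14.8 and 11.2 CPM at 24 h and 5.54 and 5.50 CPM at 48 h and changed by -1.27 ± 0.18 (adjusted p = 0.0238, edgeR with the block). In both genes the 48 h libraries lay below all other libraries, and the clones, which differed untreated, were close at 48 h for Orc1.

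Cdt1, the partner of CDC6 in loading, had the smallest p of this role. It was at 60.2 and 47.8 CPM untreated, 67.6 and 45.9 CPM at 24 h and 29.3 and 22.7 CPM at 48 h, a change of -1.05 ± 0.11 at 48 h (edgeR with the block, adjusted p = 0.0238). Its inhibitor geminin, which blocks renewed licensing during S and G2, was the member of this role that was not called. Gmnn had 36.1 and 26.9 CPM untreated, 37.2 and 22.6 CPM at 24 h and 30.2 and 20.4 CPM at 48 h, a change of -0.33 ± 0.12 that did not pass the test (adjusted p = 0.101, edgeR with the block). The untreated level of Gmnn in clone 30 lay below the 48 h level in clone 31, so its groups overlapped. Orc2 and Orc6, the remaining subunits on the list, fell by 0.78 and 0.64 on the log2 scale.

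All 6 genes of the MCM ring fell, by 0.55 to 1.06 on the log2 scale (median -0.88). Mcm3 had the smallest p of the ring and was at 244 and 199 CPM untreated, 248 and 186 CPM at 24 h and 106 and 104 CPM at 48 h in clones 31 and 30, with a change of -1.06 ± 0.12 (edgeR with the block, adjusted p = 0.0238). Mcm2 was at 265 and 209 CPM untreated, 278 and 203 CPM at 24 h and 121 and 121 CPM at 48 h and fell by 0.95. The 48 h libraries of the clones were nearly equal for both genes. Mcm4 was at 336 and 268 CPM untreated, 334 and 262 CPM at 24 h and 167 and 157 CPM at 48 h and fell by 0.88. Mcm5 was at 223 and 172 CPM untreated, 238 and 162 CPM at 24 h and 116 and 98.4 CPM at 48 h and fell by 0.87. The 48 h values of each lay below all 4 other libraries. Mcm6 was at 262 and 209 CPM untreated, 265 and 199 CPM at 24 h and 148 and 137 CPM at 48 h and changed by -0.71 ± 0.11 (adjusted p = 0.0242, edgeR with the block). Mcm7 moved least of the ring, with 268 and 187 CPM untreated, 293 and 187 CPM at 24 h and 167 and 139 CPM at 48 h and a change of -0.55 ± 0.12 (adjusted p = 0.0352, edgeR with the block). Its 48 h value in clone 31 was still below both untreated values.

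Since the 6 proteins stand in the ring in equal number, their RNA levels per length were set side by side. Mcm4 had the highest level, 84.1 ± 13.4 RPKM untreated, 83.0 ± 14.2 at 24 h and 45.2 ± 1.99 at 48 h (SD, n = 2 clones). Mcm2 had the lowest, 34.1 ± 5.75 RPKM untreated, 34.5 ± 7.60 at 24 h and 17.4 ± 0.0141 at 48 h. Within a library the highest level was 2.33 to 2.68 times the lowest, at all 3 times. Mcm3, Mcm5, Mcm6 and Mcm7 lay between them, at 59.0 ± 8.53, 49.5 ± 9.00, 50.4 ± 8.01 and 51.3 ± 12.9 RPKM untreated. The untreated levels of Mcm5, Mcm6 and Mcm7 differed by less than their spread between clones. These ranks depend on the annotated exon length, 6956 bp for Mcm2 and 3589 to 4666 bp for the other genes of the ring. Without division by length, Mcm2 was not the lowest. Its mean untreated level was 237 CPM, against 198 to 235 CPM for Mcm3, Mcm5, Mcm6 and Mcm7.

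**Figure D2:**
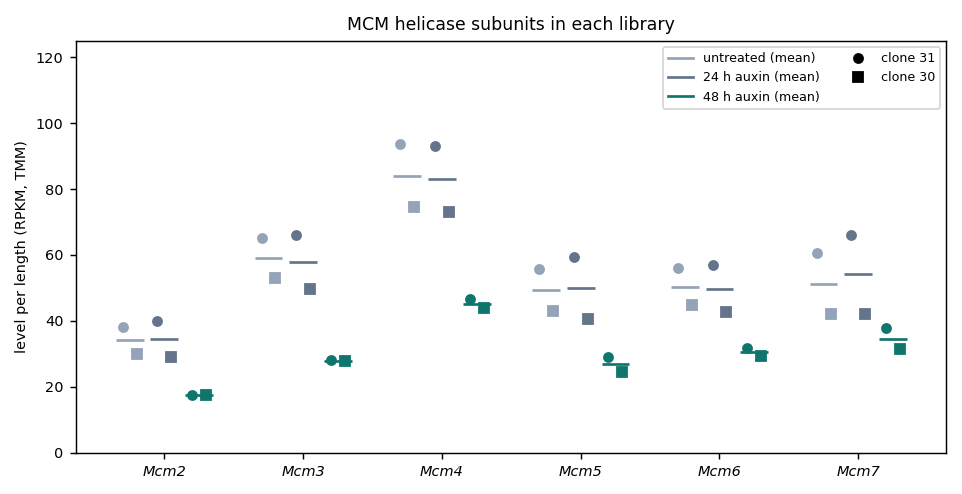
RNA level of the 6 MCM genes in RPKM (y axis) untreated, at 24 h and at 48 h of auxin; short lines are means of the 2 clones, circles clone 31 and squares clone 30. The line at 48 h is below the lines of untreated and 24 h cells for each gene, for example 45.2 RPKM for Mcm4 at 48 h against 84.1 RPKM untreated. Per length, Mcm4 stays the highest and Mcm2, which has the longest annotated exons of the 6, the lowest.

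Of the 8 genes that activate the helicase, 5 fell (median -0.57). CDC45 rides with the ring and GINS in the active helicase. Cdc45 was at 95.2 and 67.9 CPM untreated, 95.4 and 62.2 CPM at 24 h and 50.5 and 35.2 CPM at 48 h in clones 31 and 30, a change of -0.93 ± 0.090 (edgeR with the block, adjusted p = 0.0238). Mcm10, which helps the helicase start, fell by 0.83, and Dbf4, the activator of the CDC7 kinase, by 0.49. Gins2 and Gins3 fell by 0.71 and 0.65, whereas their partners in the same complex did not pass the test. Gins4 was at 35.6 and 34.03 CPM untreated, 35.2 and 31.4 CPM at 24 h and 29.8 and 26.8 CPM at 48 h, with a change of -0.30 ± 0.10 (adjusted p = 0.0873, edgeR with the block). The change of Gins1 was -0.32 (adjusted p = 0.148) and that of Cdc7 was -0.48 (adjusted p = 0.0673) in the same edgeR fit. Whether these differ from the changes of Gins2 and Gins3 was not tested.

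PCNA, the clamp that tethers the polymerases, and its loader RFC gave 4 falls among 6 genes (median -0.49). Pcna was at 259 and 219.6 CPM untreated, 259 and 198 CPM at 24 h and 177 and 136 CPM at 48 h in clones 31 and 30 and changed by -0.62 ± 0.091 (edgeR with the block, adjusted p = 0.0241). A processed copy, Pcna-ps2, held 5517 counts over the 6 libraries, against 43569 for Pcna, and reads could be split between them. Among the loader subunits, Rfc3 was at 56.9 and 51.2 CPM untreated, 56.7 and 52.2 CPM at 24 h and 34.4 and 34.04 CPM at 48 h and fell by 0.66, and Rfc4 and Rfc5 fell by 0.52 and 0.45. Rfc1, the large subunit, had the smallest change of all 55 members. It was at 192 and 156 CPM untreated, 195 and 158 CPM at 24 h and 165 and 129.5 CPM at 48 h, a change of -0.24 ± 0.083 (adjusted p = 0.0963, edgeR with the block), and its groups overlapped. Rfc2 changed by -0.29 (adjusted p = 0.0703, edgeR with the block).

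All 8 polymerase and primase genes fell (median -0.58). Pole2, the second subunit of the leading-strand polymerase epsilon, was at 22.2 and 13.2 CPM untreated, 21.8 and 14.0 CPM at 24 h and 9.49 and 7.69 CPM at 48 h in clones 31 and 30 and changed by -1.004 ± 0.16 (edgeR with the block, adjusted p = 0.0246). In its annotation 8.5% of the exon bases are shared with Gm49384 on the same strand. Pold2 and Pold1 encode subunits of the lagging-strand polymerase delta. Pold2 was at 95.4 and 73.4 CPM untreated, 108 and 77.7 CPM at 24 h and 54.4 and 47.1 CPM at 48 h and changed by -0.72 ± 0.10 (adjusted p = 0.0238, edgeR with the block). Pold1, the catalytic subunit, was at 145 and 99.0 CPM untreated, 159 and 89.2 CPM at 24 h and 94.1 and 61.6 CPM at 48 h and fell by 0.65. For Pold1 the 48 h value of clone 31 was below both untreated values but above the 24 h value of clone 30. Prim2, the large subunit of primase, had the smallest fall of this role and lay close to the threshold, at 49.5 and 42.5 CPM untreated, 48.7 and 42.9 CPM at 24 h and 37.3 and 34.04 CPM at 48 h and -0.36 ± 0.093 (adjusted p = 0.0493, edgeR with the block). The other members fell by 0.47 (Pola1), 0.60 (Pola2), 0.55 (Prim1) and 0.46 (Pole).

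RPA coats single-stranded DNA as a trimer, and 1 of its 3 genes fell. Rpa2, the middle subunit, was at 94.8 and 79.9 CPM untreated, 95.3 and 71.5 CPM at 24 h and 51.9 and 48.4 CPM at 48 h in clones 31 and 30 and changed by -0.79 ± 0.11 (edgeR with the block, adjusted p = 0.0238). Rpa1, the large subunit, was at 286 and 259 CPM untreated, 279 and 236 CPM at 24 h and 237 and 199 CPM at 48 h and changed by -0.32 ± 0.090 (adjusted p = 0.0580, edgeR with the block). Rpa3 changed by -0.36 (adjusted p = 0.0970, edgeR with the block). Both genes of Okazaki fragment joining fell. Lig1, the ligase that seals nicks, was at 208 and 151 CPM untreated, 201 and 130.3 CPM at 24 h and 139 and 96.1 CPM at 48 h and changed by -0.61 ± 0.089 (adjusted p = 0.0240, edgeR with the block), and the flap nuclease gene Fen1 fell by 0.69.

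For nucleotide supply, 4 of 5 genes fell (median -0.65). The subunits of ribonucleotide reductase, which makes deoxynucleotides, were measured at different sides of the threshold. Rrm2, the subunit that limits the enzyme in S phase, was at 401 and 312 CPM untreated, 417 and 308 CPM at 24 h and 248 and 194 CPM at 48 h in clones 31 and 30 and changed by -0.69 ± 0.091 (edgeR with the block, adjusted p = 0.0238). Rrm1, the large subunit, was at 452 and 405 CPM untreated, 431 and 350.2 CPM at 24 h and 369 and 300.2 CPM at 48 h and changed by -0.36 ± 0.10 (adjusted p = 0.0541, edgeR with the block). In both genes all 48 h libraries lay below the untreated library of their own clone, and the difference between the subunits was not tested. Tyms (thymidylate synthase), Tk1 (thymidine kinase) and Dut (dUTPase) fell by 0.65, 0.59 and 0.71.

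The G1/S regulators held the largest fall of the set, and 5 of 6 fell (median -0.86). Ccne2 (chr4:11191351-11204779, plus strand, GRCm38), which encodes a cyclin E, was at 61.7 and 46.6 CPM untreated, 52.8 and 46.1 CPM at 24 h and 21.4 and 18.2 CPM at 48 h in clones 31 and 30 and changed by -1.45 ± 0.11 (edgeR with the block, adjusted p = 0.0238). Ccne1, the other cyclin E gene, was at 52.9 and 63.4 CPM untreated, 57.0 and 66.9 CPM at 24 h and 21.3 and 35.2 CPM at 48 h and changed by -1.07 ± 0.15 (adjusted p = 0.0238, edgeR with the block). It was the 1 member that was lower in clone 31 than in clone 30 at all 3 times. Cdc25a, a phosphatase that activates CDK2, was at 64.6 and 42.9 CPM untreated, 69.1 and 50.001 CPM at 24 h and 30.97 and 30.5 CPM at 48 h and fell by 0.77.

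Of the activating E2F factors, E2f1 and E2f2 fell and E2f3 was not called. E2f1 was at 47.1 and 35.7 CPM untreated, 55.4 and 35.9 CPM at 24 h and 26.9 and 17.1 CPM at 48 h in clones 31 and 30 and fell by 0.93. E2f2 was at 39.4 and 22.1 CPM untreated, 42.6 and 22.2 CPM at 24 h and 20.9 and 14.1 CPM at 48 h and changed by -0.78 ± 0.13 (adjusted p = 0.0254, edgeR with the block). In both genes clone 31 was the higher at each time. E2f3 was at 79.6 and 69.2 CPM untreated, 86.9 and 85.2 CPM at 24 h and 42.7 and 57.3 CPM at 48 h, with a change of -0.58 ± 0.16 against untreated that did not pass the test (adjusted p = 0.0578, edgeR with the block). Both of its 24 h values exceeded both untreated values, and against 24 h the 48 h change was -0.79 ± 0.16 (adjusted p = 0.0229, edgeR with the block).

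**Figure D3:**
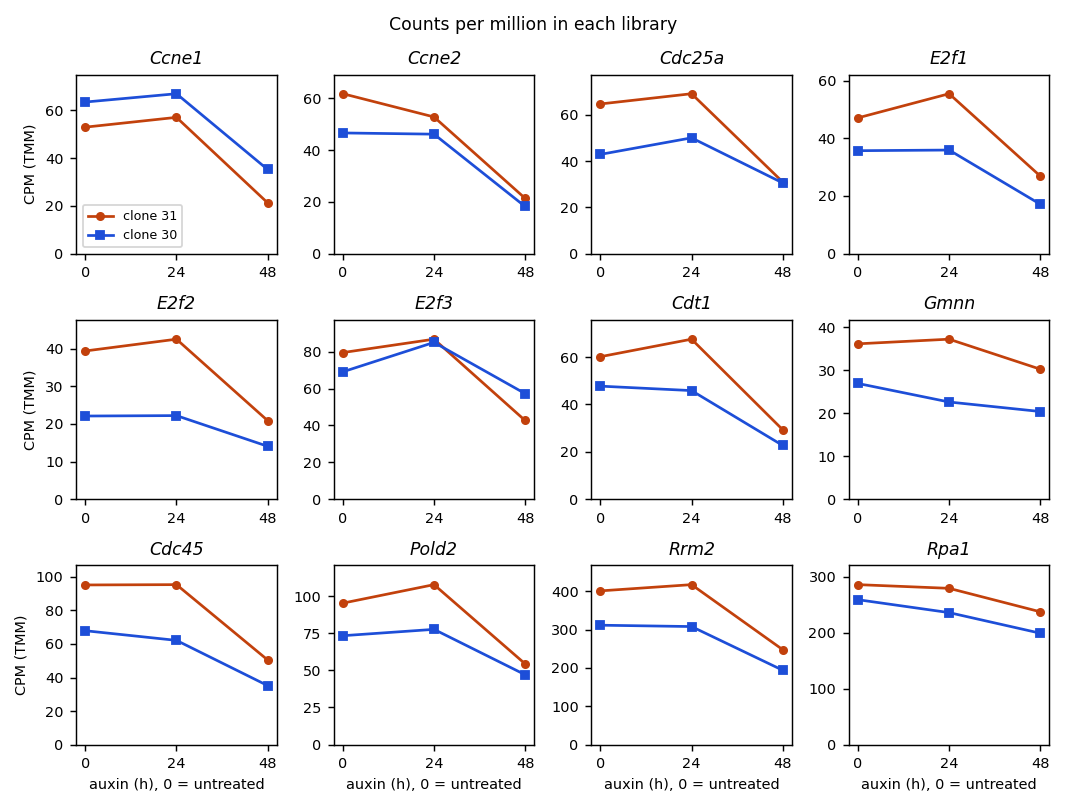
CPM (y axis, from 0) of 12 members in every library against hours of auxin (0 is untreated), with clone 31 as circles and clone 30 as squares. All lines drop between 24 and 48 h, as for Ccne2 with 21.4 and 18.2 CPM at 48 h, while Gmnn and Rpa1 drop least in proportion. Up to 24 h they move in either direction, for example in clone 30 from 69.2 to 85.2 CPM for E2f3 and from 26.9 to 22.6 CPM for Gmnn.

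All 5 genes of histone supply and chromatin copying fell (median -0.77). UHRF1 reads hemimethylated DNA behind the fork and brings in DNMT1, the maintenance methyltransferase. Uhrf1 was at 363 and 246 CPM untreated, 392 and 221 CPM at 24 h and 207 and 140.0 CPM at 48 h in clones 31 and 30 and changed by -0.81 ± 0.11 (edgeR with the block, adjusted p = 0.0238). Dnmt1 was at 387 and 270.0 CPM untreated, 422 and 290.3 CPM at 24 h and 243 and 195 CPM at 48 h and changed by -0.57 ± 0.10 (adjusted p = 0.0277, edgeR with the block). The 48 h level of each gene was below the untreated level of both clones. Chaf1a and Chaf1b, the large subunits of the chromatin assembly factor that deposits histones on new DNA, fell by 0.79 and 0.77, and Slbp, which binds the stem-loop of histone messages, fell by 0.63.

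At 24 h of auxin none of the 55 genes was called (edgeR with the block, adjusted p 0.885 to 0.9999; 0% of all tested genes were called). None had an unadjusted p under 0.05, and DESeq2 and limma voom with the block also called none of them (0.256% and 0% of all genes). The median log2 change was -0.0064, against 0.0084 over all genes, and single values ran from -0.14 (Rrm1) to 0.21 (E2f3). Against untreated, 16 members were lower in both clones and 12 higher in both, against 29.5% and 33.9% of all genes, and 27 differed in sign between the clones. The groups did not overlap for 2 members, Rpa3 (lower) and E2f3 (higher), against 12.4% and 13.0% of all genes in those directions.

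Most of the difference between 48 h and untreated cells lay after 24 h. Between 48 h and 24 h, 46 members fell, none rose and 9 were not called (edgeR with the block; 13.9% of all genes were lower and 12.3% higher), with a median of -0.65. Of all 55 members, 45 had CPM at 48 h that did not overlap those at 24 h, against 27.9% of all genes. On treatment group alone edgeR called none. The comparisons at 48 h share their libraries, so these counts are not independent of those against untreated. The count was 0 without either 24 h library and 45 to 48 without any other library.

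Other genes of the cycle were set beside the members from lists of related genes. In the blocked edgeR fit at 48 h, 9.08% of all tested genes were called lower and 8.35% higher. Of 34 other replication and fork genes, 20 fell at 48 h and none rose (edgeR with the block), with a median of -0.45. Hells, a chromatin remodeller needed for DNA methylation, changed by -1.37 ± 0.17, Tipin, a fork protection factor, by -0.85 ± 0.11, and Chek1, the kinase of the replication checkpoint, by -0.81 ± 0.10, each with an adjusted p of 0.0238 in that edgeR fit. Of 12 other nucleotide synthesis genes, 9 fell (median -0.56), among them Ctps (CTP synthase) by 1.34, Umps (uridine monophosphate synthase) by 0.80 and Mthfd1 (folate metabolism) by 0.58. Among the mitotic genes 3 of 18 fell (median -0.27), and these were Bub1 and Ttk, kinases of the spindle checkpoint, by 0.43 and 0.39, and Cdk1, the mitotic kinase, by 0.44. The difference between the mitotic list and the members was not tested.

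Upstream of E2F, a list of 21 G1 cyclins, kinases, inhibitors, pocket proteins and E2F partners was mixed. Of 20 tested, 9 fell and 1 rose, with a median of -0.33, where 9.08% of all genes were called lower and 8.35% higher. Ccnd1, cyclin D1, was at 1124 and 1314 CPM untreated, 1238 and 1924 CPM at 24 h and 203 and 498 CPM at 48 h in clones 31 and 30 and changed by -1.93 ± 0.26 (edgeR with the block, adjusted p = 0.0238). Cdk2, the partner of cyclin E, fell by 0.66, and Tfdp1, the dimer partner of the E2F factors, by 0.71. The gene that rose was Cdkn1b (p27), an inhibitor of cyclin E with CDK2, named after its value was seen; it had 220.3 and 137 CPM at 48 h, against 155 and 110.1 CPM untreated in clones 31 and 30, a change of 0.41 ± 0.093 (adjusted p = 0.0382, edgeR with the block). At 24 h none of the genes of these 4 lists was called by edgeR with the block.

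**Figure D4:**
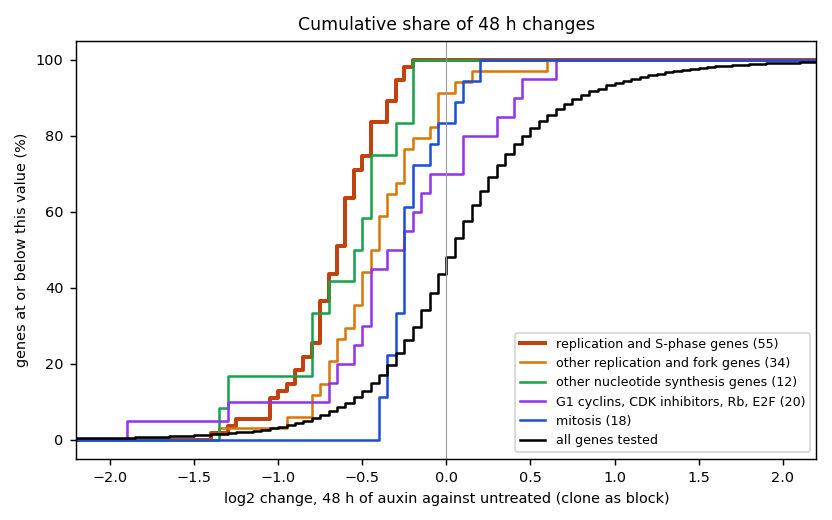
Cumulative share of genes (y axis, percent) against the blocked log2 change at 48 h minus untreated (x axis) for the 55 members, 4 related lists and all tested genes. The curve of the members reaches 100% below 0 around a median of -0.65, the mitotic genes have a median of -0.27, and all genes centre on 0.02.

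The clones themselves differed in the level of these genes. With treatment group and clone as terms, 28 of the 55 were higher in clone 31 than in clone 30, none was lower and 27 were not called (edgeR quasi-likelihood test; 7.54% of all genes were called higher and 8.58% lower). The median difference was 0.35 on the log2 scale, against 0.01 over all genes. In CPM, 48 members were higher in clone 31 at all 3 times, which held for 26.9% of all genes, and 1, Ccne1, was lower at all 3 times, which held for 26.1%. The smallest p values were those of Pold1 (0.66 ± 0.083, adjusted p = 0.00708), E2f2 (0.79 ± 0.10, adjusted p = 0.00833) and Lig1 (0.54 ± 0.072, adjusted p = 0.00841) in the edgeR fit. All 5 genes of histone supply and chromatin copying were called. Of the mitotic list, 16 of 18 genes were also higher in clone 31. The count of 28 was 0 without either 24 h library, 12 or 13 without an untreated library and 43 or 45 without a 48 h library.

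The median difference between clone 31 and clone 30 over the 55 genes was 0.37 untreated, 0.44 at 24 h and 0.25 at 48 h, as a description with 1 library per clone and time. The test of the clone's effect on the 48 h change gave no member at an adjusted p under 0.05 (edgeR; 12 at an unadjusted p under 0.05, 4.47% of all genes called in either direction), and DESeq2 and limma voom gave none (1.76% and 3.99% of all genes). Each side of this test is 1 library at 48 h, so the spread comes from the untreated and 24 h libraries, with 1 residual degree of freedom and the assumption that the clones differ equally at those times. Its smallest adjusted p was 0.0641, for E2f3, with a difference in 48 h change of -0.54 (log2, clone 31 minus clone 30). The within-clone changes at 48 h had a Spearman correlation of 0.69 and a Pearson correlation of 0.74 across the 55 genes, as a description, since genes are not independent and those of a clone share libraries.

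**Figure D5:**
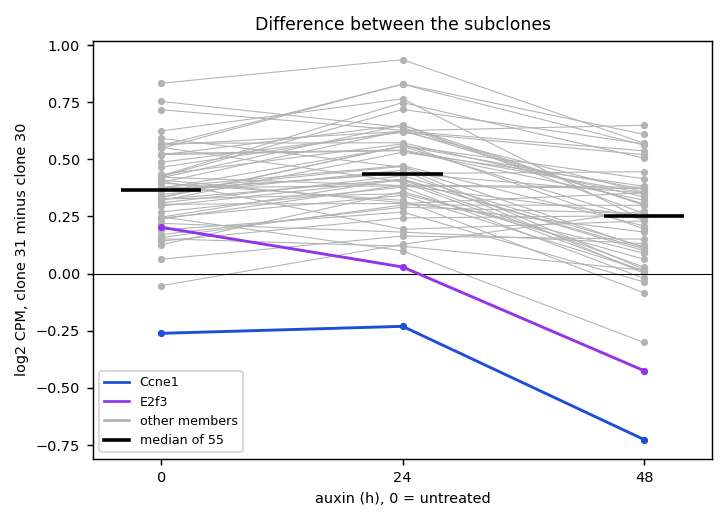
Difference in log2 CPM between clone 31 and clone 30 (y axis) for each of the 55 genes untreated, at 24 h and at 48 h of auxin, with the median in black. The medians are 0.37, 0.44 and 0.25; Ccne1 lies below 0 throughout and E2f3 moves below 0 at 48 h.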

How the data were processed

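RNA from 6 libraries of SPEN-AID NPCs was sequenced from both fragment ends (100 bases each), per the labels' protocols. Raw counts per gene were deposited by the authors, who used featureCounts 1.6.1 over exons (reversely stranded) on Ensembl release 92 of GRCm38, per the file headers. Exon lengths in bp stand beside them, per the file headers. The submitters' processing notes name R 3.4.2 and DESeq2. The aligner's settings are not given in the sources used here. Symbols matched 53620 of 53801 gene identifiers.

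The members and lists were chosen with earlier results of these data known. The 16007 genes kept by filterByExpr were tested in all 6 libraries with the robust quasi-likelihood test of edgeR 4.0.16 under R 4.3.3 (2-sided, TMM, Benjamini-Hochberg adjusted p under 0.05), and the main model held treatment group alone. An SE is the log2 change over the root of its F statistic. The sample titles name the subclone, which pairs libraries across groups: deviations from group means correlated within a subclone at 0.80 for untreated with 24 h, 0.58 for untreated with 48 h and 0.71 for 24 h with 48 h. The blocked fit is therefore printed where it changes a call. Adding the clone lowered the biological coefficient of variation to 0.121, against 0.271 for group alone. RPKM is TMM-normalized CPM per kb of exon length, computed here. The clone contrast came from a model of group plus clone.

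Genes given per library are, for each role, those with the smallest p and the smallest change at 48 h in the blocked fit, all MCM and G1/S genes, and the 3 with the smallest p between clones. CPM of Orc1, Cdc6, Pcna, Pole2 and Cdkn1b were added after their values were seen. Of each related list up to 3 genes with the smallest p are named. Alternatives were other scalings and filters, DESeq2 1.42.0, limma 3.58.1 voom, the 4 libraries compared, and leaving out each library. Scripts were tested on simulated data. A floor of 3 counts was 0.122 CPM in the smallest library and covers counting error only. Promoter windows are from RefSeq (GRCm38.p6).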

Additional observations from a re-analysis of the deposited data

How the results depend on the processing

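The number of members lower at 48 h than untreated turned on the clone. On treatment group alone edgeR called 0, or 4 with no filter, and DESeq2 called 20. With the clone as a block edgeR called 45, as it did with RLE scaling, 43 with upper-quartile scaling, 44 with total counts or a filter at 1 CPM in 2 libraries and 46 with no filter, DESeq2 48 and limma voom 46. With 1 library left out the blocked count ran from 0 (without untreated clone 31) over 23 (either 24 h library) and 35 (untreated clone 30) to 49 (either 48 h library), and with only the 4 libraries compared it was 0. The 48 h median on group alone (-0.66) ran from -0.83 to -0.48 with 1 library left out, where the clones are unbalanced between groups.

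At 24 h the median on group alone (0.0030) ran from -0.25 to 0.19 with 1 library left out, and with the block from -0.10 to 0.064. For 48 h against 24 h, group alone gave 0, or 12 with no filter, and DESeq2 gave 27. The paired count was 46 by edgeR (also with RLE scaling, a filter at 1 CPM or none), DESeq2 and voom, 44 with upper-quartile scaling, 45 with total counts or the 4 libraries, and 0 (without either 24 h library), 45, 47 or 48 with 1 library left out. The median on group alone (-0.67) ran from -0.90 (without 24 h clone 30) to -0.41 (without 24 h clone 31). The 48 h change of Gmnn against 24 h ran from -0.56 to 0.16 (without 24 h clone 31), with 0.033 without 48 h clone 30, and that of Gins1 from -0.57 to 0.0087 (without 24 h clone 31).

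Members higher in clone 31 (28) ran from 0 to 45 with 1 library left out. The count of lower ones (0) was 1 with no filter, by DESeq2 and without either 48 h library. Orc2 (0.019) turned to -0.036 with upper-quartile scaling, -0.043 with total counts and -0.091 to -0.021 with 1 untreated or 24 h library left out. E2f3 (-0.061) ran from -0.19 to 0.11, with 0.10 or more without a 48 h library. Members whose 48 h change differed between clones (0) numbered 1 with RLE scaling, 2 with upper-quartile scaling, 3 with total counts and 6 with no filter. Over all genes, upper-quartile scaling moved the calls between 48 h and 24 h to 2549 higher and 1726 lower, against 1961 and 2224 with TMM, and between clones to 973 higher and 1617 lower, against 1207 and 1374. The causes were not tested. The 2 libraries per group and 2 residual degrees of freedom in the blocked fit limit every test. A fit with 1 library left out has a group of 1 library.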

Other observations

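Outside the 55 genes, values of 3 genes of nucleotide synthesis are given for each clone, as a description of single libraries with no test, and the genes were chosen after their values were seen. Shmt1, which supplies one-carbon units for thymidylate, had 18.5 and 27.4 CPM at 48 h, against 71.5 and 50.3 CPM untreated in clones 31 and 30. Ctps had 35.1 and 46.0 CPM at 48 h, against 115 and 91.6 CPM untreated in these clones. Cad, which starts pyrimidine synthesis, had 103 and 122 CPM at 48 h, against 235 and 174 CPM untreated. In each gene clone 31 was the lower at 48 h and the higher untreated, and both 48 h values lay below both untreated values.

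The E2F letters were also counted in the promoters of the related lists. They stood in 34.4% of the windows of other replication and fork genes, 25% of those of G1 cyclins, CDK inhibitors, pocket proteins and E2F partners, 6.67% of those of mitotic genes and 0% of those of other nucleotide synthesis genes (0 of 12 windows, from 11 genes), against 2.26% of all windows.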
